A study of Mus musculus with 6 samples.

Results

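The genes described here are nuclear genes for mitochondrial transcription and RNA stability, chosen by name for these roles. All 10 were found by symbol among the 54446 genes of the deposited tables, and all 10 passed the filter for testing, a mean of at least 1 FPKM over the 6 libraries (11915 genes). They are Polrmt, Tfam, Tfb1m, Tfb2m and Tefm, which act in transcription of mitochondrial DNA or are related to it, and Lrpprc, Slirp, Mtpap, Pnpt1 and Supv3l1, which act on the RNA. The samples were stem-like Lewis cells, a mouse lung carcinoma line of WT genotype, kept in DMEM with 2% serum and either treated with RT-MPs for 48 h (3 libraries) or left untreated over the same 48 h (Control, 3 libraries). The labels neither expand the name RT-MPs nor say whether replicates were separate cultures, so p-values measure the spread between these libraries, which may be technical. FPKM stands for fragments per kilobase of gene, scaled to the library's reads.

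Mitochondrial DNA is a small circle whose genes are copied into long RNAs by an RNA polymerase of its own, POLRMT. TFAM binds the promoters and packages the DNA, TFB2M helps the polymerase open the promoter, and TEFM keeps it moving along the template, while TFB1M, a relative of TFB2M, methylates the rRNA of the small mitochondrial ribosome subunit. LRPPRC and SLIRP form a complex that binds and stabilises mitochondrial mRNAs, MTPAP adds poly(A) tails to them, and PNPase (from Pnpt1) works with the helicase SUV3 (from Supv3l1) to degrade mitochondrial RNA.

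One library, RT-MPs replicate 3, differed from the remaining 5. Lars2 and 4 rRNA-like or short noncoding genes (Gm42418, Gm26917, Gm23935 and Rn7sk), picked after their values were seen, took 0.148%, 0.164% and 6.56% of reads in RT-MPs replicates 1 to 3, against 0.166% to 0.175% in Control. Library totals recovered from the values lay between 16951000 and 21876540 reads. The epithelial gene Krt8 was expressed at 142.7 to 159.7 FPKM in RT-MPs and at 163.8 to 174.3 FPKM in Control, whereas Epcam was listed at 0 in all 6 libraries. Krt18 had 6.03 to 8.16 FPKM in RT-MPs and 7.05 to 7.86 FPKM in Control. Cdh1 reached 0.034 FPKM in Control and Krt19 0.159 FPKM in RT-MPs. Of 4 mesenchymal markers, 3 averaged at least 1 FPKM. In Control, Vim had 918.2 to 954.3 FPKM, Fn1 248.5 to 269.6 FPKM and Col3a1 140.6 to 145.0 FPKM. In RT-MPs they had 918.1 to 952.0, 237.8 to 311.5 and 113.9 to 133.3 FPKM. Col1a1 reached 0.0237 FPKM in Control. Of 7 stem-like markers, 2 averaged at least 1 FPKM: Cd44, at 50.2 to 63.0 FPKM in RT-MPs and 57.4 to 61.5 FPKM in Control, and Klf4, at 2.25 to 3.71 FPKM in RT-MPs and 2.44 to 3.11 FPKM in Control, while Nanog was listed at 0 throughout. Of 6 leukocyte markers, 1 reached 1 FPKM, Cd68, and the list summed to 38.9 to 40.1 FPKM in RT-MPs and 28.04 to 32.80 FPKM in Control, while Adgre1 and Cd3e were listed at 0 and Ptprc reached 0.0060 FPKM in RT-MPs and 0.0029 FPKM in Control. The part of leukocyte RNA in the results was not tested.

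None of the 10 genes was called at an adjusted p of 0.05 (limma, Benjamini-Hochberg over all tested genes), where 3.99% of tested genes were called, 2.70% lower and 1.29% higher. That balance turned round under some other scalings, with 136 genes lower and 231 higher after median-ratio scaling, but not in TPM, with 29 lower and 17 higher. The RT-MPs mean was lower than the Control mean in 9 of the 10 in FPKM as deposited, against 66.0% of tested genes, and of these Polrmt and Supv3l1 turned above 0 in log2 change under another scaling. In 7 of the 10 every RT-MPs value lay below every Control value in FPKM as deposited, against 30.4% of tested genes. This separation was not examined under other scalings. An unadjusted p under 0.05 was reached by 5 of the 10, all of them lower in RT-MPs, against 27.3% of tested genes in either direction and 20.9% lower. The median log2 change of the 10 genes was −0.22, beside −0.09 over all tested genes. Tfam, Tfb2m and Lrpprc were called lower once RT-MPs replicate 3 was left out, in a comparison where 15.1% of tested genes were called lower. In these bulk libraries less RNA per cell and fewer cells of a kind that express a gene cannot be told apart.

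**Figure D1:**
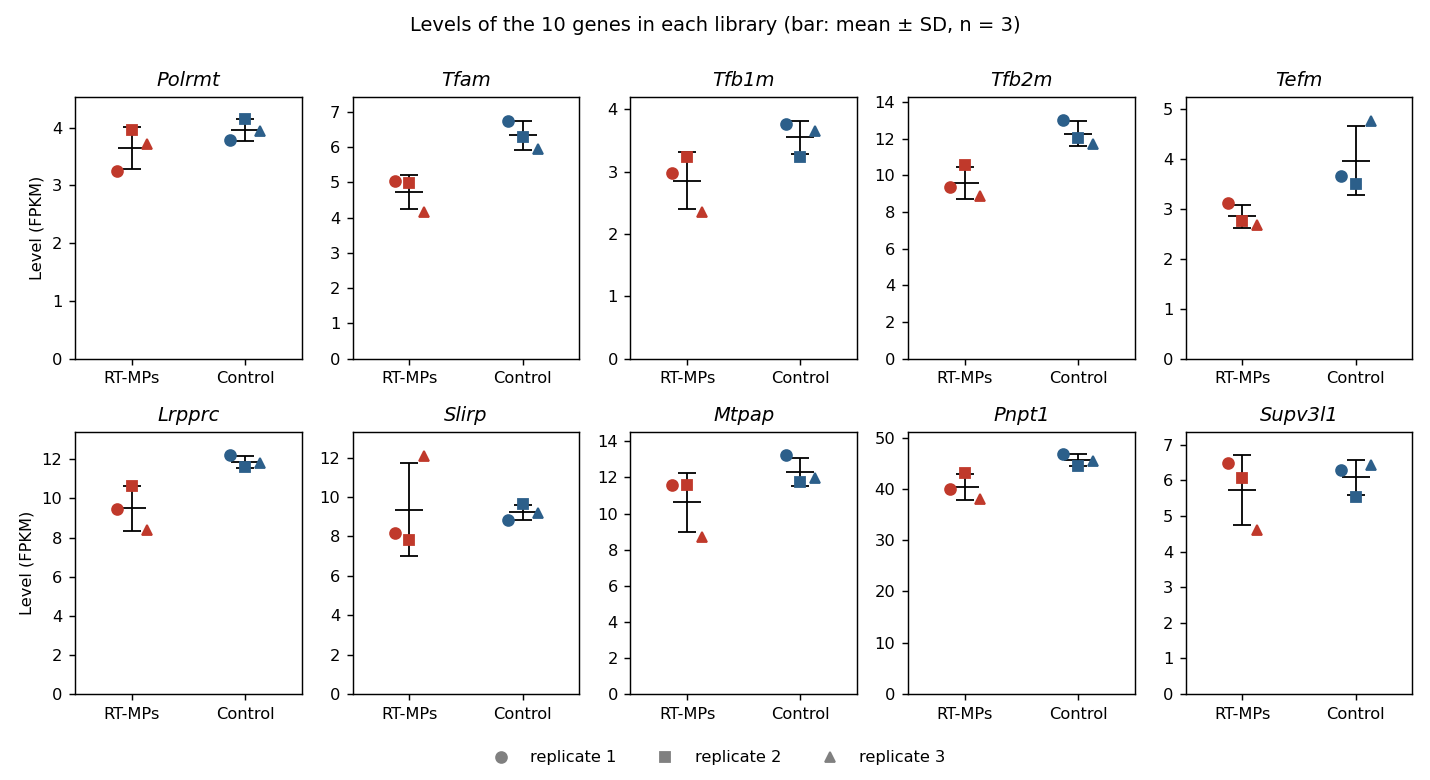
FPKM of each of the 10 genes (vertical axes, each from 0) in the 3 RT-MPs and 3 Control libraries, with 1 symbol per replicate and the mean and SD of each group. The RT-MPs points of Tfam, Tfb1m, Tfb2m, Tefm, Lrpprc, Mtpap and Pnpt1 all lie below the Control points, while for Slirp RT-MPs replicate 3 lies above all other libraries.

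Levels per length differed 13.4-fold between the highest and the lowest of the 10 genes. Pnpt1 averaged 43.0 FPKM over the 6 libraries, above 91.4% of tested genes, and its lowest library, at 38.0 FPKM, exceeded the highest of any other member, 13.2 FPKM for Mtpap. Mtpap, Tfb2m, Lrpprc and Slirp followed with means of 11.5, 10.9, 10.7 and 9.30 FPKM, each overlapping its neighbour in that order. Supv3l1 and Tfam, at 5.90 and 5.53 FPKM, overlapped each other as well. Polrmt, Tefm and Tfb1m came last, at 3.802, 3.407 and 3.202 FPKM, and these also overlapped their neighbours in that order over the libraries, although Polrmt was above Tfb1m within each library.

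The order rests on the gene length the authors divided by. For 9 of the 10 genes, FPKM times the summed exon length in GENCODE M21 gave whole reads in every library, within 0.1 of a read. For Mtpap it did not, so its level per length and its read numbers are approximate. The summed length exceeds the principal transcript 2.57-fold for Tfb1m (3609 against 1402 bases) and 1.94-fold for Lrpprc (8504 against 4393 bases), but 1.07-fold for Tfam (4438 against 4167 bases), which places Tfb1m and Lrpprc lower beside Tfam than their principal transcripts would.

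Tfam, the DNA-packaging and promoter-binding factor (chromosome 10, 71225464 to 71238280, mm10, minus strand), had 5.03, 4.99 and 4.16 FPKM in RT-MPs replicates 1 to 3, against 6.75, 6.29 and 5.95 FPKM in Control replicates 1 to 3. All RT-MPs values were below all Control values, and RT-MPs replicate 3 was the lowest. The means were 4.73 ± 0.490 FPKM in RT-MPs and 6.33 ± 0.403 FPKM in Control (SD, n = 3 each), so that RT-MPs stood at 74.6% of Control. On the log2(FPKM + 1) scale, used for changes unless another is named, which understates changes of low genes, the difference was −0.36 (SE 0.09, 95% interval −0.57 to −0.15, limma adjusted p = 0.0656), and 8.33% of tested genes had a lower value. Tfam was called without RT-MPs replicate 3 (−0.29, limma adjusted p = 0.0244) and by limma voom on the recovered reads (−0.42 in log2 counts, adjusted p = 0.0487).

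Tfb2m, the promoter-opening factor (chromosome 1, 179528055 to 179546267, minus strand), had 9.37, 10.6 and 8.86 FPKM in RT-MPs, against 13.0, 12.1 and 11.7 FPKM in Control. Again the groups did not overlap, and RT-MPs stood at 78.2% of Control. The log2 change was −0.33 (SE 0.08, 95% interval −0.52 to −0.13, limma adjusted p = 0.0682), and −0.28 (adjusted p = 0.0347) without RT-MPs replicate 3.

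Tfb1m, the rRNA methylase gene (chromosome 17, 3519256 to 3557781, minus strand), had 2.9765, 3.235 and 2.3539 FPKM in RT-MPs, against 3.7586, 3.2429 and 3.6456 FPKM in Control. The groups nearly met, with RT-MPs replicate 2 just under Control replicate 2. The difference was −0.24 (SE 0.11, 95% interval −0.50 to 0.01, limma adjusted p = 0.20), and −0.15 (adjusted p = 0.199) without RT-MPs replicate 3. Exons of Tiam2 on the opposite strand share 142 bases with it, 3.93% of its exon length. The ratio of Tfb1m to Tfb2m was 0.318, 0.306 and 0.266 in RT-MPs and 0.288, 0.269 and 0.311 in Control, and the groups overlapped.

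Tefm, the elongation factor gene (chromosome 11, 80136678 to 80142175, minus strand), had 3.12, 2.76 and 2.67 FPKM in RT-MPs, against 3.66, 3.49 and 4.75 FPKM in Control. The groups did not overlap, and Control replicate 3 lay above the other Control libraries. RT-MPs averaged 2.85 ± 0.237 FPKM and Control 3.97 ± 0.685 FPKM (SD, n = 3 each), the lowest ratio of the 10 genes at 71.8%. It also rested on the fewest reads, 71 to 144 a library, with a counting error of up to 11.9%. This gave a log2 change of −0.36 (SE 0.11, 95% interval −0.63 to −0.09, limma adjusted p = 0.109), and −0.33 (adjusted p = 0.0947) without RT-MPs replicate 3. Without Control replicate 3 it was −0.25 (limma adjusted p = 0.315).

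Polrmt, the polymerase gene (chromosome 10, 79736123 to 79746581, minus strand), had 3.25, 3.97 and 3.71 FPKM in RT-MPs, against 3.78, 4.16 and 3.95 FPKM in Control. RT-MPs replicate 2 lay within the Control range, so the groups overlapped. The fitted log2 change was −0.10 (SE 0.08, 95% interval −0.30 to 0.10, limma adjusted p = 0.468), beside the all-gene median of −0.09. It was between −0.15 and −0.04 when a library was left out (nearest 0 without RT-MPs replicate 1), and 0.011 after quantile normalization. The ratio of Tfam to Polrmt was 1.55, 1.26 and 1.12 in RT-MPs and 1.79, 1.51 and 1.51 in Control. Tefm stood at 0.959, 0.695 and 0.718 of Polrmt in RT-MPs and at 0.968, 0.840 and 1.204 of it in Control. Both ratios overlapped between the groups.

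**Figure D2:**
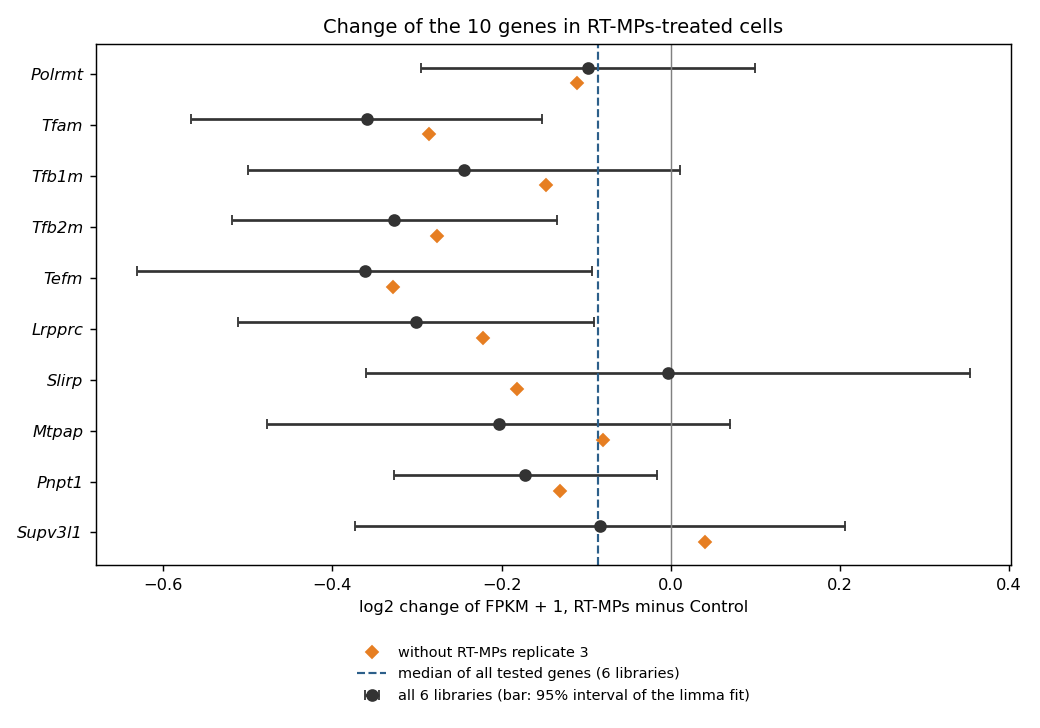
Difference of each gene in log2(FPKM + 1), RT-MPs minus Control (horizontal axis), with the 95% interval of the limma fit over all 6 libraries and, in a second symbol, the estimate without RT-MPs replicate 3. The intervals of Tfam, Tfb2m, Tefm, Lrpprc and Pnpt1 lie below 0 and those of the other 5 genes include it, while no adjusted p is under 0.05.

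Promoter sequences are shown for 5 genes, to set those whose levels differed most (Tfam, Tfb2m, Tefm) beside a pair with little difference in the mean (Polrmt, Slirp). Each line gives the 150 bases before the gene's start site in RefSeq (GRCm38.p6), 5′ to 3′ on the gene's strand. RefSeq places the starts of Tfam and Tefm, at 71238044 and 80142153, inside the GENCODE spans given above, so the Tfam window, and the end of the Tefm window with its core, lie within those spans. Capitals mark CCGGAAG or its reverse complement CTTCCGG, a core bound by ETS factors such as GABP (GABPA is its DNA-binding subunit), a known activator of nuclear genes for mitochondrial proteins.
Tfam, chr10:71238045-71238194, minus strand: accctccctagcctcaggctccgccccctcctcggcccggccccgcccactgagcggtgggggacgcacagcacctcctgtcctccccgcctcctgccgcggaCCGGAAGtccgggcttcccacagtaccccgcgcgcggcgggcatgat
Tfb2m, chr1:179546277-179546426, minus strand: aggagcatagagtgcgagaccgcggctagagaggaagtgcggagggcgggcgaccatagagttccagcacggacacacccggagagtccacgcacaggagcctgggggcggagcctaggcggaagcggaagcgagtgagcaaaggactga
Tefm, chr11:80142154-80142303, minus strand: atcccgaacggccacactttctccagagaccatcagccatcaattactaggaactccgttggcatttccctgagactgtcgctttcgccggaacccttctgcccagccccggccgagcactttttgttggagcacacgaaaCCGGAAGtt
Polrmt, chr10:79746582-79746731, minus strand: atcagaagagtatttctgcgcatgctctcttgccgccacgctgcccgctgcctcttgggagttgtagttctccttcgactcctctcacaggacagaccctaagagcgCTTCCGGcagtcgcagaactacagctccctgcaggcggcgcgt
Slirp, chr12:87443746-87443895, plus strand: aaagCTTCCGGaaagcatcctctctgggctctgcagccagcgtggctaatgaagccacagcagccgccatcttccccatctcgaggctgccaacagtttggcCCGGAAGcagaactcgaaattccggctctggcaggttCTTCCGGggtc
The ETS core was searched on both strands in the 250 bases before the start, which the RefSeq table covers for 9 of the 10 genes. It was present in 4 of the 9, against 6.91% of all 32851 promoter windows of that length. Those windows were not limited to the genes tested here, so they are an unlike background for expressed genes. Polrmt held it with the first base at −43 from the start, Tfam at −47, Tefm at −9, and Slirp at −146, −48 and −11. The core of the NRF1 site, CGCANGCG on either strand, was present in 1 of the 9, Supv3l1 at −67, and in 6.76% of all windows. With all libraries, genes holding the ETS core were found among those with larger differences in level (Tfam, Tefm) and with small ones (Polrmt, Slirp). The small difference of Slirp rested on RT-MPs replicate 3, without which its log2 change was −0.18. Tfb2m and Lrpprc, with larger differences, and Supv3l1, with a small one, did not hold the ETS core in this window. Neither did Tfb1m and Pnpt1. A link of the core to the changes was not tested.

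Lrpprc, the large RNA-binding partner of the stabilising complex (chromosome 17, 84705247 to 84790789, minus strand), had 9.47, 10.6 and 8.37 FPKM in RT-MPs, against 12.2, 11.6 and 11.8 FPKM in Control. All RT-MPs libraries lay below all Control libraries, and the Control values were within a coefficient of variation of 2.65%. RT-MPs averaged 9.49 ± 1.13 FPKM and Control 11.9 ± 0.315 FPKM (SD, n = 3 each). On the log2 scale the difference was −0.30 (SE 0.09, 95% interval −0.51 to −0.09, limma adjusted p = 0.0966), and −0.22 (adjusted p = 0.0409) without RT-MPs replicate 3.

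Slirp, the small partner (chromosome 12, 87443896 to 87452206, plus strand), had 8.19, 7.84 and 12.1 FPKM in RT-MPs, against 8.85, 9.63 and 9.21 FPKM in Control. RT-MPs replicates 1 and 2 lay below all Control libraries and RT-MPs replicate 3 above them all, 1.51 times the mean of the other RT-MPs libraries. Its FPKM mean was slightly higher in RT-MPs (9.37 ± 2.35 FPKM, against 9.23 ± 0.392 FPKM in Control, SD, n = 3 each), and its log2 change slightly below 0, at −0.0035 (SE 0.15, 95% interval −0.36 to 0.35, limma adjusted p = 0.990), with the widest interval of the 10 genes. Without RT-MPs replicate 3 it was −0.18 (SE 0.05, limma adjusted p = 0.0502), and with all libraries after median-ratio scaling 0.0906. The ratio of Slirp to Lrpprc was 0.865, 0.737 and 1.44 in RT-MPs and 0.725, 0.831 and 0.779 in Control, so RT-MPs replicate 3 lay outside the range of the other 5 libraries.

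The reads of Slirp are uncertain. Of its exon bases, 93.9% lie opposite exons of the splicing factor gene Snw1, and the use of strand in counting is not given in the sources used here. Snw1 had 20.2, 19.5 and 17.0 FPKM in RT-MPs and 21.2, 20.3 and 22.4 FPKM in Control, and was lowest in the library where Slirp was highest. Values also moved with transcript length in RT-MPs replicate 3. Of 649 tested protein-coding genes with a principal transcript under 1000 bases, 80.0% were higher there than in the mean of RT-MPs replicates 1 and 2, against 52.4% of 4505 genes with one of 1000 to 3000 bases and 19.5% of 5139 genes with one over 3000 bases. Slirp, with a principal transcript of 2701 bases, belongs to the middle class, where the median log2 difference was 0.014, although its 4 annotated transcripts begin at 335 bases, and the part of strand or length in its value was not tested.

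Mtpap, the poly(A) polymerase gene (chromosome 18, 4375592 to 4397330, plus strand), had 11.57, 11.58 and 8.72 FPKM in RT-MPs, against 13.22, 11.74 and 11.96 FPKM in Control. RT-MPs replicates 1 and 2 were just under Control replicate 2, and RT-MPs replicate 3 was well below. The log2 change was −0.20 (SE 0.11, 95% interval −0.48 to 0.07, limma adjusted p = 0.294), and −0.08 (adjusted p = 0.35) without that library. The antisense gene Gm26865, which shares 18.5% of its exon bases, was listed at 0 in all libraries.

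Pnpt1, the RNA-degrading phosphorylase, which interferon is known to induce in human cells (chromosome 11, 29130744 to 29161828, plus strand), had 39.9, 43.2 and 38.0 FPKM in RT-MPs, against 46.8, 44.5 and 45.3 FPKM in Control. The groups did not overlap. With 2267 to 3411 reads a library it had the smallest counting error of the members, 1.71% at its best, and the narrowest interval of the 10 genes. Its log2 change was −0.17 (SE 0.07, 95% interval −0.33 to −0.02, limma adjusted p = 0.153), and −0.13 (adjusted p = 0.0887) without RT-MPs replicate 3. With all libraries after median-ratio scaling it was −0.07 (limma adjusted p = 0.468).

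Supv3l1, the helicase gene (chromosome 10, 62429209 to 62449738, minus strand), had 6.48, 6.07 and 4.61 FPKM in RT-MPs, against 6.29, 5.52 and 6.44 FPKM in Control. RT-MPs replicate 3 was the lowest library and RT-MPs replicate 1 the highest, so the RT-MPs values enclosed all Control values. The log2 change was −0.08 (SE 0.12, 95% interval −0.37 to 0.21, limma adjusted p = 0.674), and it was above 0 without RT-MPs replicate 3 (0.04), after median-ratio scaling (0.0037) and after quantile normalization (0.014). Supv3l1 stood at 0.162, 0.141 and 0.121 of the Pnpt1 level in RT-MPs and at 0.134, 0.124 and 0.142 of it in Control. The Control ratios lay within the range of the RT-MPs ratios.

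**Figure D3:**
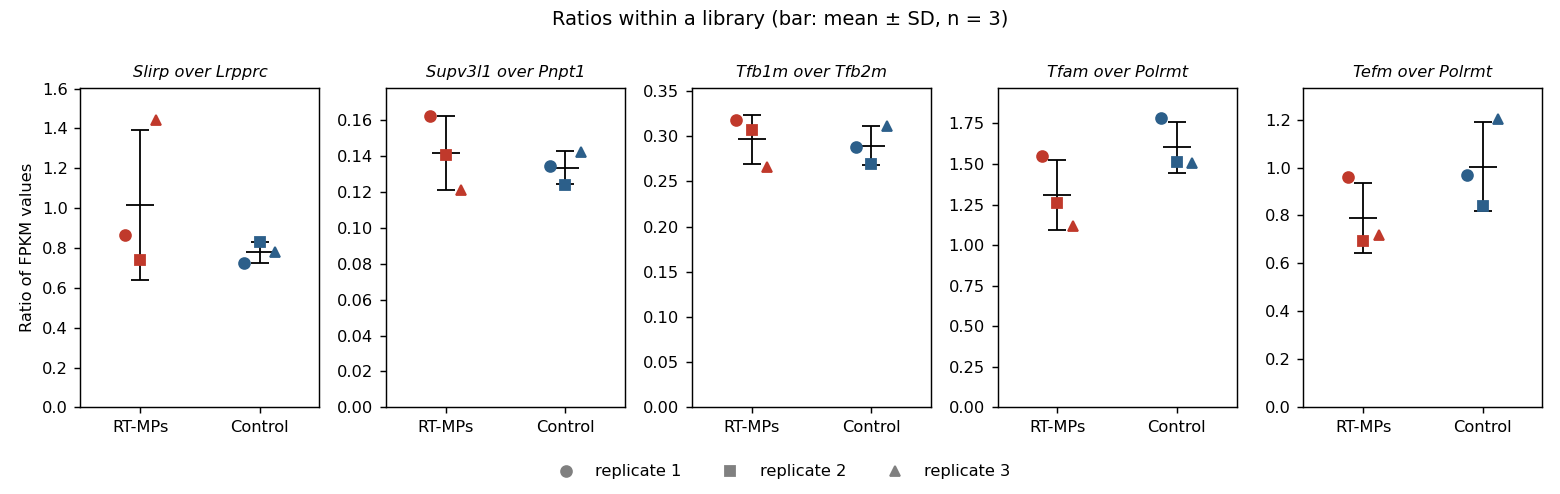
Ratios of FPKM of functional pairs within each library (vertical axes, each from 0), with 1 symbol per replicate and the mean and SD of each group. All 5 ratios overlap between RT-MPs and Control, and Slirp over Lrpprc is 1.44 in RT-MPs replicate 3 and at most 0.865 in the other libraries.

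RT-MPs replicate 3 held the lowest of the 6 values in 8 of the 10 genes, all but Polrmt and Slirp, against 48.0% of tested genes. It lay furthest below its group for Mtpap, Supv3l1 and Tfb1m, at 0.754, 0.734 and 0.758 of the mean of RT-MPs replicates 1 and 2. Without it the median log2 change of the 10 genes was −0.16, beside −0.06 over all tested genes. When limma weighted libraries by their quality (arrayWeights), RT-MPs replicates 1 to 3 had weights of 4.87, 0.609 and 0.0799. The RT-MPs estimate thus rested mostly on RT-MPs replicate 1. With these weights 8 of the 10 genes were called lower, all but Mtpap and Supv3l1, but so were 27.7% of all tested genes. The members' median minus the all-gene median was −0.14 on FPKM as deposited and −0.10 without RT-MPs replicate 3. It was −0.14 after median-ratio scaling, −0.13 after quantile normalization and −0.15 after rescaling to TPM. Median-ratio scaling and TPM divide each library by a single factor, which moves all genes nearly alike, so they could hardly change this difference. The rescaling to TPM by itself moved the all-gene median to −0.38.

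The pattern over the 6 libraries was described by Pearson's r of log2(FPKM + 1), without a p, for Polrmt, Tfam and Lrpprc. Points share the library and, across genes, the departure of RT-MPs replicate 3. Lrpprc and Pnpt1 varied most alike of the pairs looked at (r = 0.993 over 6 libraries), and 8 of all tested genes were closer to Lrpprc, among them Fgfr1op2 and Slc46a1 (0.998 and 0.996). Tfam was closest to Yars, Smim8 and Pcyox1 (0.998, 0.997 and 0.997), and among the members to Tfb2m (0.961). Polrmt followed another pattern, closest to Gm16386, Hap1 and Tmem185a (0.981, 0.974 and 0.967), with an r of at most 0.587 to any member. Slirp had a negative r with Tfam and Lrpprc (−0.37 and −0.47), with its highest value in RT-MPs replicate 3, where theirs were lowest, whereas without that library all 3 genes had a negative log2 change.

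The other nuclear genes of mitochondrial genome expression were looked at in 5 lists of 79 genes, of which 75 were tested. Of these, 2 were called lower and none higher, 2.67% against 3.99% of all tested genes, and the RT-MPs mean was lower in 55 of 75, against 66.0% of all tested genes. Both called genes modify mitochondrial tRNAs. Nsun3, a tRNA cytosine methyltransferase, fell to 1.504 ± 0.0953 FPKM in RT-MPs, against 2.37 ± 0.158 FPKM in Control (SD, n = 3 each; log2 change −0.43, limma adjusted p = 0.0452). Trmt5, a tRNA guanine methyltransferase, fell to 11.2 ± 0.345 FPKM in RT-MPs, against 13.9 ± 0.369 FPKM in Control (SD, n = 3 each; −0.28, limma adjusted p = 0.0477). In their list of 24 processing and modification genes all 24 FPKM means were lower in RT-MPs, with a median log2 change of −0.11, close to the all-gene −0.09, which median-ratio scaling moved to 0.0015, and for Trmt10c, a subunit of the mitochondrial RNase P, it was −0.07 (limma adjusted p = 0.546). Over all lists beside the 10 genes, mitochondrial RNAs included, 7 genes were called with all libraries by limma, against 3, 2 and 25 without RT-MPs replicates 1, 2 and 3 and 0 without any 1 of the Control replicates.

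Of 14 tested genes for replication and upkeep of mitochondrial DNA none was called, and the median log2 change was −0.09, or −0.03 without RT-MPs replicate 3. In that comparison 3 were called lower, Twnk and, named after their values were seen, Top1mt and Rrm2b, and 1 higher, Primpol, likewise. Over all tested genes 15.1% were called lower there, and 746 of 11915 were called higher. Twnk, the replicative helicase, averaged 10.8 ± 1.33 FPKM in RT-MPs and 13.8 ± 0.462 FPKM in Control (SD, n = 3 each), a log2 change of −0.34 (limma adjusted p = 0.0853), and was called without RT-MPs replicate 3 (−0.25, limma adjusted p = 0.0236). The polymerase Polg and the single-strand binding protein Ssbp1 differed by 0.09 and −0.05 (limma adjusted p = 0.417 and 0.728). None of 9 transcription modulators was called (median −0.02, or −0.13 without RT-MPs replicate 3). Among them Lonp1, the matrix protease known to degrade TFAM, averaged 75.4 ± 1.41 FPKM in RT-MPs and 65.3 ± 2.19 FPKM in Control (SD, n = 3 each), a log2 change of 0.20 (limma adjusted p = 0.0818), and was called higher without RT-MPs replicate 3 (0.20, limma adjusted p = 0.0221). Mterf4, named after its values were seen, was called lower without RT-MPs replicate 3 (−0.23, limma adjusted p = 0.0428). Mterf3, a repressor of mitochondrial transcription, had a log2 change of −0.02 with all libraries (limma adjusted p = 0.888).

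None of 17 tested genes of the RNA granule and of the FASTK and PPR protein families was called (median −0.15). In that list Grsf1, a granule protein that binds mitochondrial RNA, averaged 52.8 ± 7.93 FPKM in RT-MPs and 52.7 ± 1.98 FPKM in Control (SD, n = 3 each). Its log2 change was −0.0077 with all libraries and 0.12 (limma adjusted p = 0.0958) without RT-MPs replicate 3. Fastkd5, which is needed for processing of some mitochondrial precursors, had a log2 change of −0.22 (limma adjusted p = 0.246). The 11 tested nuclear regulators had a median log2 change of 0.02 with none called. Without RT-MPs replicate 3 the median was 0.06, and 2 were called higher, Sp1 and Hcfc1, named after their values were seen. In that comparison 746 of 11915 tested genes were called higher. For Nrf1, Gabpa and Pprc1, transcription factors or coactivators of nuclear genes for mitochondria, the log2 changes with all libraries were 0.02, −0.18 and −0.16 (limma adjusted p = 0.833, 0.354 and 0.133). Without RT-MPs replicate 3 that of Gabpa was −0.05.

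**Figure D4:**
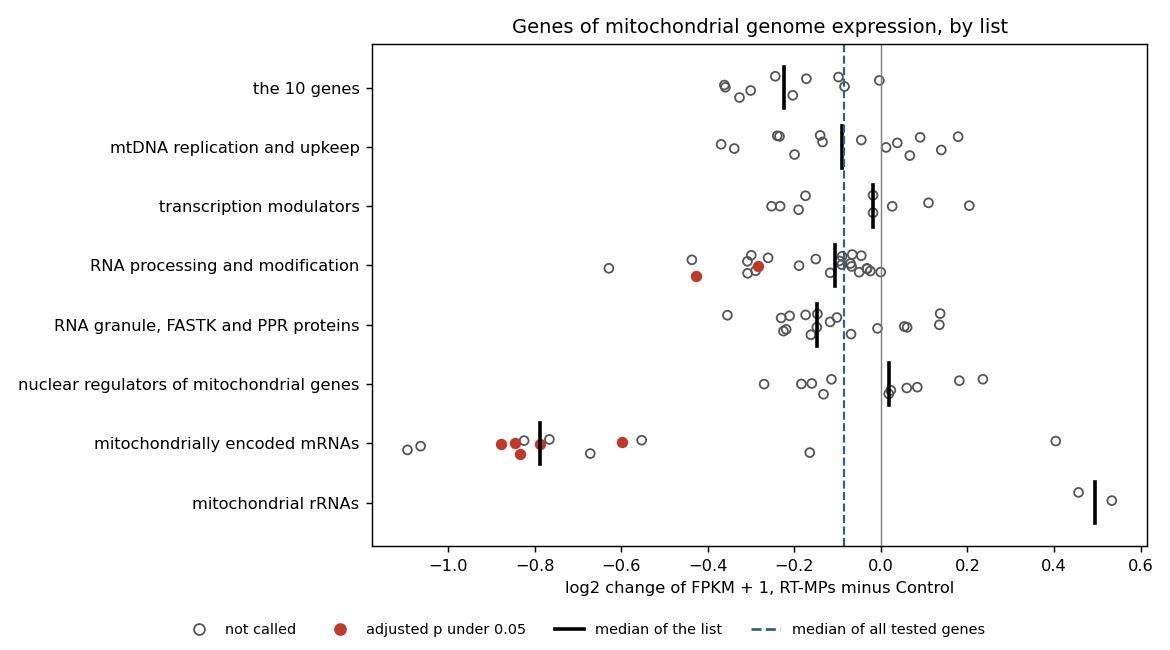
Difference in log2(FPKM + 1), RT-MPs minus Control (horizontal axis), of every tested gene in each list (rows), with the list's median and with genes called by limma marked. The 10 members have a median of −0.22, the nuclear lists have medians of −0.15 to 0.02, and the mitochondrially encoded mRNAs have a median of −0.79.

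The mRNAs encoded in mitochondrial DNA, on which these factors act, are given for the same libraries. Of 13 tested, 5 were called lower, against 2.70% of all tested genes, and none higher, and the median log2 change was −0.79. Without RT-MPs replicate 3 the median was −0.69 and 9 were called lower, against 15.1% of all tested genes. None of the 13 was called when any 1 Control library was left out. The cytochrome b mRNA mt-Cytb had 1203, 1077 and 949.5 FPKM in RT-MPs, against 1881, 1694 and 1988 FPKM in Control, without overlap, and it fell by 0.79 (SE 0.11, limma adjusted p = 0.0293). By the same rule mt-Co3, mt-Atp6 and mt-Nd4, for subunits of complexes IV, V and I, are named as having fallen, by 0.88, 0.85 and 0.83 (limma adjusted p = 0.0109, 0.0183 and 0.0371). The mRNA from the opposite strand, mt-Nd6, whose end overlaps that of mt-Nd5 so that reads there could be split, had 73.2, 57.3 and 110.4 FPKM in RT-MPs, against 185.6, 128.8 and 180.6 FPKM in Control, a log2 change of −1.06 (limma adjusted p = 0.0628). For the rRNA mt-Rnr2, RT-MPs replicates 1 to 3 had 177.3, 176.6 and 593.9 FPKM, against 182.1, 184.6 and 181.7 FPKM in Control. The higher value in RT-MPs replicate 3 moved with its share of rRNA-like reads, whose part in it was not tested. For the 2 rRNAs, mt-Rnr1 and mt-Rnr2, the median log2 change was 0.50 with all libraries, and none was called. Without RT-MPs replicate 3 it was −0.10, and 1 of the 2 was called lower. The most abundant of the mRNAs, mt-Co1, named here after its values were seen, had 8792, 8514 and 7199 FPKM in RT-MPs, against 9022, 9029 and 9308 FPKM in Control, a log2 change of −0.16 (limma adjusted p = 0.324). The single mRNA with a higher mean in RT-MPs, mt-Atp8, also named after its values were seen, rested on 1 to 13 reads a library. Together the 13 mRNAs, with mt-Co1 the largest part, took 1.81%, 1.72% and 1.44% of reads in RT-MPs and 2.04%, 2.00% and 2.14% in Control, while the FPKM of the 10 factors summed to 99.4, 104.8 and 93.6 in RT-MPs and 118.4, 112.3 and 114.8 in Control.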

How the data were processed

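RNA was extracted with Trizol and sequenced with the KAPA stranded mRNA library kit, per the labels' protocols, and reads were aligned with HISAT2 to mm10, per the submitters' processing notes. The authors deposited FPKM values per gene; their annotation, counting program, strand setting and HISAT2 version are, in the sources used here, not given. Groups and replicate numbers came from the titles. Multiplying FPKM by the summed exon length in GENCODE M21 (54409 of 54446 identifiers matched) and by a read total made 98.6% to 98.9% of low values whole numbers of reads (tolerance 0.1), and these totals stand for depth. Intervals of counting error cover counting only.

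From these values log2(FPKM + 1) was tested in the 11915 genes with a mean of at least 1 FPKM, RT-MPs against Control, 2-sided, by moderated linear models (limma 3.58.1 under R 4.3.3, eBayes with a trend), adjusted by Benjamini-Hochberg over all tested genes at 0.05. The fit was tested on simulated data. An exact permutation test of 3 against 3 cannot go below 0.1, so none was used for single genes. No pair of libraries had counts that agreed within sampling noise (chi-square per gene of at least 2.20).

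The 10 genes and all lists were chosen with earlier results of these data known. Named were the 10 genes, up to 3 called genes in each direction with the largest change of each other list, 14 genes whatever their result, and the 3 genes most like Polrmt, Tfam and Lrpprc over the libraries. Of these, 1 gene is not reported here. Prorp and Mtres1 were matched as 1110008L16Rik and 1700021F05Rik. Motifs were searched in RefSeq promoter windows (GRCm38.p6) with Python 3.11.15. Alternatives were other pseudocounts (0.1 and 5), filters (none, or 5 FPKM), median-ratio, TPM and quantile scaling, a replicate term, arrayWeights, limma voom on recovered reads, and leaving out each library. Rescaling to the sum over protein-coding genes without Lars2, and median-ratio scaling without RT-MPs replicate 3, were added after seeing the data.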

Additional observations from a re-analysis of the deposited data

How the results depend on the processing

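Of 177 values of the 10 genes under 18 alternatives, 152 kept their direction and side of the threshold, 13 were newly called and 12 changed sign. No member was called under 14 of the alternatives. In place of 0, 8 members were called with arrayWeights, 1 with limma voom and 1 with median-ratio scaling without RT-MPs replicate 3, and 0 to 3 when a library was left out (3 without RT-MPs replicate 3). The sign changes were small. Slirp was at 0.0018 with a pseudocount of 5, 0.0906 after median-ratio scaling, 0.0757 after quantile normalization, and 0.07, 0.10 and 0.02 without RT-MPs replicate 1, RT-MPs replicate 2 and Control replicate 2, in a range of −0.18 to 0.10 when a library was left out. Supv3l1 was at 0.0037 after median-ratio scaling, 0.014 after quantile normalization, 0.0496 with arrayWeights, −0.17 to 0.0410 when a library was left out (above 0 without RT-MPs replicate 3) and 0.10 with median-ratio scaling without it. Polrmt was at 0.011 after quantile normalization. Over all genes the 476 calls (154 higher, 322 lower) became 26 without a filter, 46 in TPM, 4576 with arrayWeights, 800 with limma voom, 2103 with median-ratio scaling without RT-MPs replicate 3, and 0 to 2548 when a library was left out (74 and 10 without RT-MPs replicates 1 and 2, 2548 without RT-MPs replicate 3, and 0, 2 and 0 without Control replicates 1 to 3). The split depended on scaling, with 231 higher and 136 lower after median-ratio scaling and 195 higher and 153 lower after quantile normalization. Of the genes in the other lists 7 were called, against 1 without a filter, 4 after median-ratio scaling, 4 in TPM, 3 after quantile normalization, 45 with arrayWeights, 13 with limma voom, 4 on the protein-coding sum, 22 with median-ratio scaling without RT-MPs replicate 3, and 0 to 25 when a library was left out. The cause of these changes was not tested. With the replicate block 0 genes, 0 members and 0 list genes were called. Deviations of same-numbered libraries correlated at 0.0959, −0.0820 and −0.0288, and 2 of 6 libraries correlated best with their own number, so the numbers were not taken as pairs. Low read numbers limit Tefm most.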
